A study of Mus musculus with 4 samples.

Results

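The Kruppel-like factors are a family of zinc-finger transcription factors, and 9 of its genes were followed here: Klf2, Klf3, Klf4, Klf5, Klf6, Klf7, Klf10, Klf13 and Klf15. They were taken by gene symbol from the 52636 genes of the deposited matrices, and each symbol matched 1 gene ID. The data were droplet single-cell RNA libraries from mouse kidney glomeruli, the capillary tufts that filter blood, with 2 libraries from young and 2 from aged untreated mice. Per the labels, glomeruli were caught with magnetic beads perfused through the heart and were then digested to single cells with enzymes. The labels give neither sex nor strain, no age in months, and no number of mice per library. Replicates are therefore libraries, and the spread between them may be technical.

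Kruppel-like factors bind GC-rich and CACCC-type DNA through zinc fingers at the end of the protein. KLF2 and KLF4 are induced in endothelium by laminar flow through the MEKK3, ERK5 and MEF2 cascade, and they raise anticoagulant and vasodilator genes and hold down adhesion and clotting genes. KLF4 and KLF15 maintain podocyte differentiation, and Klf15 is a direct target of the glucocorticoid receptor. KLF6 is an injury-induced factor, KLF7 is best known from neurons and adipose tissue, KLF10 is an early TGF-beta response gene, KLF3 is a repressor that recruits CtBP, KLF13 acts in lymphocytes, and KLF5 is an epithelial factor.

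The deposited matrices held 33323 barcodes and 18457791 to 42046542 UMIs (unique molecular identifiers, 1 per captured transcript molecule) per library. After filtering, 28000 cells remained, with median UMI counts of 1258 to 3730 per library. Young replicate 2 stood apart: 60.25% of its kept cells were mixed, against 1.426% to 4.608% in the other libraries. Mixed cells lay in clusters with markers of unrelated classes, or were single cells of named clusters with such markers. They were left out of the classes. Across libraries, 116 barcodes occurred more than once. Levels are given in CPM, UMI counts of a gene summed over the cells of a class in 1 library and scaled to a common total. Podocytes numbered 578 to 1744 per library, endothelial cells 1382 to 6023 and mesangial cells 192 to 703. All 9 podocyte markers were above every other class in podocyte sums, and all 6 mesangial markers were in mesangial sums. So were 7 of the 8 endothelial markers in endothelial sums. The exception, Plvap, a marker of fenestrated and venous endothelium, reached 772 CPM in a mesangial sum against at most 65.0 in endothelial cells.

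In GENCODE vM21 on GRCm38, Klf2 lies at chr8:72319033-72321656 on the plus strand, Klf4 at chr4:55527143-55532466 on the minus strand, Klf6 at chr13:5861482-5870394 on the plus strand, Klf7 at chr1:64029447-64122282 on the minus strand and Klf15 at chr6:90462576-90475238 on the plus strand. Klf3 lies at chr5:64803388-64832901, Klf5 at chr14:99298691-99315036, Klf10 at chr15:38291463-38300706 and Klf13 at chr7:63886351-63938915. Klf3, Klf7 and Klf13 overlap other annotated genes, Klf3 and Klf7 on both strands and Klf13 on the other strand only. The effect of these overlaps on their counts was not tested. The other 6 genes overlap none.

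The stretches upstream of 4 members are shown because the results turn on these genes: Klf4 and Klf15 moved in opposite directions in aged podocytes, Klf6 rose in aged endothelium, and Klf2 is the flow-induced member. Each stretch is 220 bases long and ends 31 bases before the RefSeq start site on GRCm38.p6, written 5′ to 3′ on the gene's strand: chr8:72318812-72319031 for Klf2, chr4:55532506-55532725 for Klf4, chr13:5861239-5861458 for Klf6 and chr6:90462326-90462545 for Klf15. Capitals mark exact matches on either strand to CACCC (the core bound by Kruppel-like factors), GGGCGG (the box bound by SP factors) and the MEF2 core (CTA, any 4 bases, then TAG).
Klf2: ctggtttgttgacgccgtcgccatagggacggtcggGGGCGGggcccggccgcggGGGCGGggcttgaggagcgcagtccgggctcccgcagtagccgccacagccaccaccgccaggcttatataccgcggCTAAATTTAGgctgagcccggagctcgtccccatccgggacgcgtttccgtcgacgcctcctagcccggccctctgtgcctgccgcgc
Klf4: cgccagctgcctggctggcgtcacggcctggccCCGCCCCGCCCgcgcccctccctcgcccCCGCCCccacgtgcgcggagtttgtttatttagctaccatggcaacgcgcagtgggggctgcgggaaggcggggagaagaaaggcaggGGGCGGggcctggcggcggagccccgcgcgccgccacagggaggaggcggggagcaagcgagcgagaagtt
Klf6: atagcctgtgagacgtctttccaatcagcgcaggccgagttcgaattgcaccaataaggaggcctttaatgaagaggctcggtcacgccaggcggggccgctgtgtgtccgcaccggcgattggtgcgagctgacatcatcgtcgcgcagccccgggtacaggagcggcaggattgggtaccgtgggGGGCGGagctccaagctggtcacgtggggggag
Klf15: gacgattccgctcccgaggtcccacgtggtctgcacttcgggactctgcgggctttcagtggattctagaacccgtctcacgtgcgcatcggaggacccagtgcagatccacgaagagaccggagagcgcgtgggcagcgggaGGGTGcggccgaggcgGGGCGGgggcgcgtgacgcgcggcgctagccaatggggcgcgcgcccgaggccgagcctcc

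Only the Klf2 stretch of these 4 held the MEF2 core, 118 bases before the start, where 2.83% of all 32851 RefSeq windows of this length held one. The Klf4 stretch held 4 GGGCGG matches, of which 3 read CCGCCC as printed, and the Klf2 stretch held 2. The Klf6 and Klf15 stretches held 1 each, against 28.5% of all windows with at least 1. The Klf15 stretch was the only one of the 4 with a CACCC match, printed as GGGTG, and 47.8% of all windows held one. The full glucocorticoid response element (AGAACA, any 3 bases, then TGTTCT) was in none of the 4 stretches, and 0.00913% of all windows held it. RefSeq windows for Klf3, Klf7 and Klf13 were searched too and are not printed.

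Most Klf transcripts differed in level between the glomerular classes. Levels were compared for the same gene between classes, in CPM on 1 scale over the 12 sums of 3 classes and 4 libraries. Of the 24 differences tested (8 members, 3 pairs of classes), 22 were called at an adjusted p under 0.05, where 77% of all genes were called between endothelial cells and podocytes, 74.3% between mesangial cells and podocytes and 59.5% between mesangial and endothelial cells. By pair, 8 of 8, 6 of 8 and 8 of 8 members were called.

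The flow-induced pair was highest in endothelium. Klf2 averaged 1564 ± 156 (SD, n = 4) in endothelial cells, 1052 ± 157 in podocytes and 462 ± 79.0 in mesangial cells, and all 3 pairs were called. Klf4 averaged 1084 ± 212 in endothelial cells, while mesangial cells at 187 ± 27.1 and podocytes at 179 ± 81.0 were not told apart (log2 difference 0.16 ± 0.18 SE, adjusted p = 0.41). That comparison pools both ages, and the order of these 2 classes differed by age. In young libraries podocytes held 234 and 262 CPM of Klf4 and mesangial cells 194 and 200. In aged libraries podocytes held 114 and 104 and mesangial cells 147 and 207. The lowest endothelial library held 823 CPM of Klf4, above every podocyte and mesangial library. Mesangial sums carried endothelial markers, Plvap included, at 14.5% to 16.8% of their endothelial level in young and 12.9% to 15.2% in aged libraries. The part of endothelial transcripts in the mesangial levels of this and other members was not tested.

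Klf6 had a different order, with podocytes highest at 1102 ± 171 (SD, n = 4), then mesangial cells at 553 ± 107 and endothelial cells at 451 ± 165. The mesangial and endothelial ranges overlapped, at 411 to 659 and 311 to 647, although their difference of 0.33 ± 0.12 (log2, SE) was called with an adjusted p of 0.032. Klf15 was also highest in podocytes, at 14.6 ± 10.9, against 4.79 ± 3.42 in mesangial cells and 0.408 ± 0.507 in endothelial cells. Its podocyte libraries spanned 4.83 to 25.6, with the young ones at the bottom.

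Klf3, Klf7, Klf10 and Klf13 were each highest in endothelial cells. Klf3 averaged 252 ± 31.3 (SD, n = 4) there, 137 ± 30.4 in mesangial cells and 34.6 ± 5.29 in podocytes. Klf7 averaged 549 ± 44.6 in endothelial cells, and podocytes at 224 ± 83.3 and mesangial cells at 189 ± 16.1 were not told apart (adjusted p = 0.25). Both ages are pooled there too. In young libraries Klf7 was at 143 and 162 in podocytes and 172 and 185 in mesangial cells. In aged libraries it was at 306 and 284 in podocytes and 210 and 191 in mesangial cells. Klf13 averaged 327 ± 28.6, 170 ± 28.6 and 144 ± 16.4 in endothelial, mesangial and podocyte sums. Klf10 was low in each of these classes, at 32.5 ± 5.62 in endothelial cells, 12.1 ± 4.59 in podocytes and 5.91 ± 3.13 in mesangial cells.

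**Figure D1:**
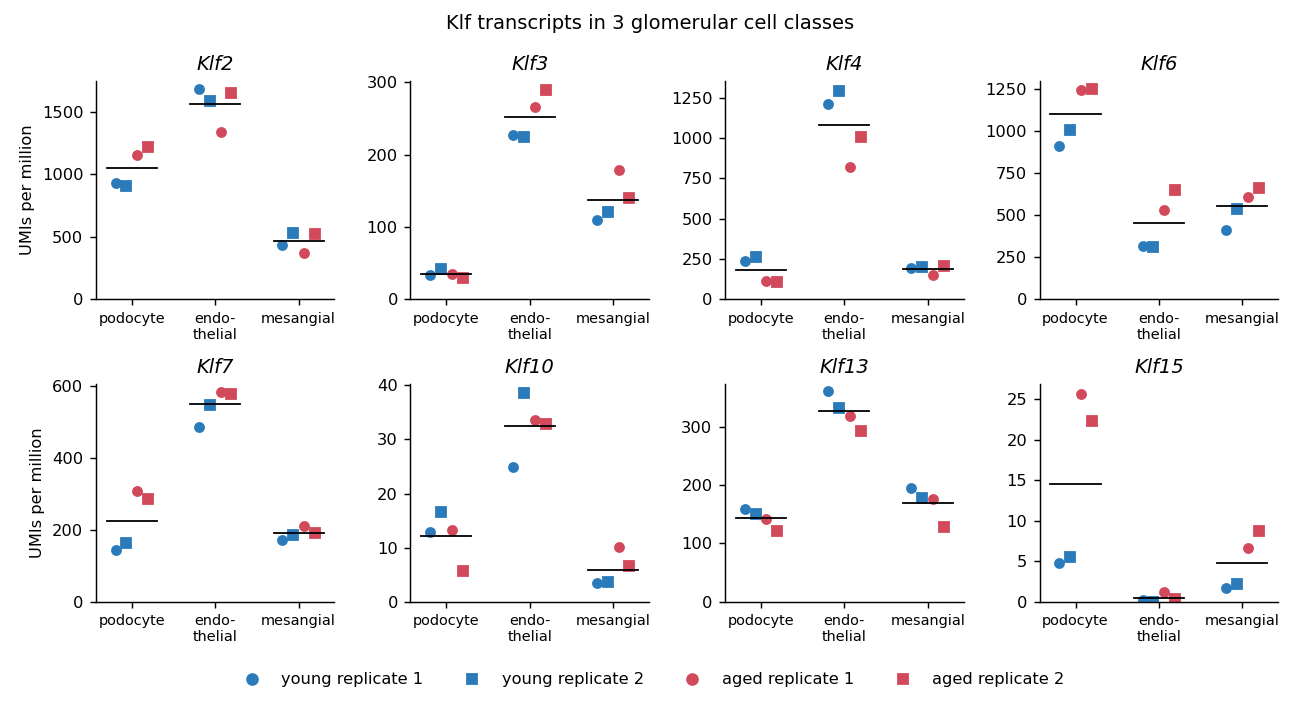
CPM (vertical axis, from 0, a scale of its own for each gene) of 8 Klf genes in podocyte, endothelial and mesangial sums. Points are the 4 libraries and black lines their means; Klf2 and Klf4 are highest in endothelial cells, and Klf6 and Klf15 in podocytes.

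Klf5, the epithelial member, was nearly absent from the tuft classes. It had 1 to 3 UMIs per podocyte sum, 4 to 39 per endothelial sum and 1 to 15 per mesangial sum. Its levels were higher in unnamed clusters with parietal epithelial markers, the cells that line Bowman's capsule: 40.8 and 51.7 CPM in young against 54.9 and 55.0 in aged libraries. In the young libraries this rests on 3 and 5 UMIs, and in the aged on 14 and 18. There were 17 and 21 such cells in young against 42 and 35 in aged libraries. The clusters were not named because Tagln was among their leading genes, and were not tested. Klf6 in them was 422 and 589 in young against 894 and 807 in aged libraries, and Klf15 had 1 UMI in all 4 together.

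For each member, the 3 genes whose log2(CPM + 1) followed it most closely over the 12 sums were listed from 6170 genes. These sums share libraries and classes, so the correlations are descriptions. Klf2 was closest to Mfsd6, Lims2 and Samd12 (r = 0.98, 0.98 and 0.97), Klf4 to Vangl1, Parvb and Fem1c (0.98 each) and Klf3 to Myct1, Slc43a3 and Glul (1.00 each). Klf6 was closest to Zfp36, an early-response RNA decay factor, with Tmem55b and Ccng1 next (0.96, 0.96 and 0.95). Klf7 was closest to Rtn4, Camk2d and Rnd1 (0.97, 0.96 and 0.96), and Klf15 to Ctps, Tiparp and Chp1 (0.98, 0.96 and 0.96). Klf10 was nearest to Pmp22, Msl2 and Tor1aip1 (0.94 each), and Klf13 to BC005561, Mob3c and Taf7 (0.98, 0.97 and 0.97).

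In podocytes, the cells whose foot processes carry the filtration slit, aged libraries held less Klf4 and more Klf7 and Klf15 than young ones. Of the 8 members tested, 2 were called higher and 1 lower, where 5.78% of all 10857 genes were called in either direction. The median log2 fold change of the 8 was 0.09, against 0.00 over all genes tested. In 6 of the 8 the young and aged libraries did not overlap, which held for 46% of all genes.

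Klf15, the glucocorticoid-induced differentiation factor, stood at 4.86 and 5.69 CPM in the young libraries and at 26.0 and 22.9 in the aged ones. These values rest on 37, 19, 145 and 109 UMIs. The groups did not overlap, with aged values on top, and the log2 fold change was 2.25 ± 0.23 (SE, adjusted p = 1.8e-07), a 4.75-fold rise. With every cell of at least 1000 UMIs thinned to 1000, 0.287% (95% Wilson interval 0.123% to 0.671%) and 0.534% (0.182% to 1.56%) of young podocytes had a Klf15 UMI. In the aged libraries the shares were 2.64% (1.81% to 3.84%) and 1.84% (1.05% to 3.18%), and in endothelial cells at most 0.136%. These intervals cover counting error only. Cells with fewer UMIs were left out of the thinned shares, 1 to 16 podocytes and 19 to 162 endothelial cells per library. Without thinning, the podocyte shares were 2.06% and 3.11% in young against 13.1% and 14.3% in aged libraries.

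Klf4, a factor of the differentiated podocyte, went the other way. It was at 236 and 268 CPM in young against 116 and 107 in aged libraries. The groups did not overlap, and Klf4 fell by 1.17 ± 0.13 on the log2 scale (SE, adjusted p = 8.8e-07), to 0.444 of the young level. Thinned to equal depth, 15.5% and 19.4% of young podocytes and 7.71% and 7.49% of aged podocytes had a Klf4 UMI. In endothelial cells, the class with the highest Klf4, those shares were 42.1% to 61.2%.

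Klf7 stood at 144 and 166 CPM in young against 311 and 291 in aged libraries. It rose by 0.97 ± 0.13 (log2, SE, adjusted p = 1.6e-05), a 1.95-fold difference with no overlap between groups. The thinned shares of podocytes with a Klf7 UMI were 11.4% and 13.7% in young against 20.9% and 20.95% in aged libraries.

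The other podocyte members did not pass the test. Klf2 was at 934 and 931 in young against 1170 and 1249 in aged libraries (log2 fold change 0.38 ± 0.14 SE, adjusted p = 0.12). Klf6 was at 915 and 1030 in young against 1261 and 1281 in aged libraries (0.39 ± 0.14, adjusted p = 0.12). Neither pair of groups overlapped. Klf3, Klf10 and Klf13 had log2 fold changes of -0.20, -0.56 and -0.23. Without young replicate 2, the library with most mixed cells, 5 members were called: Klf2 and Klf6 passed as well, at adjusted p of 0.023 and 0.0023 by edgeR's quasi-likelihood test, beside Klf4, Klf7 and Klf15. Without young replicate 1, Klf2 passed too. Without aged replicate 1, Klf10 passed as lower, at -1.31. With cells of mixed clusters kept, Klf15 was the 1 member called, and Klf4 and Klf7 had log2 fold changes of -1.39 and 0.89.

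**Figure D2:**
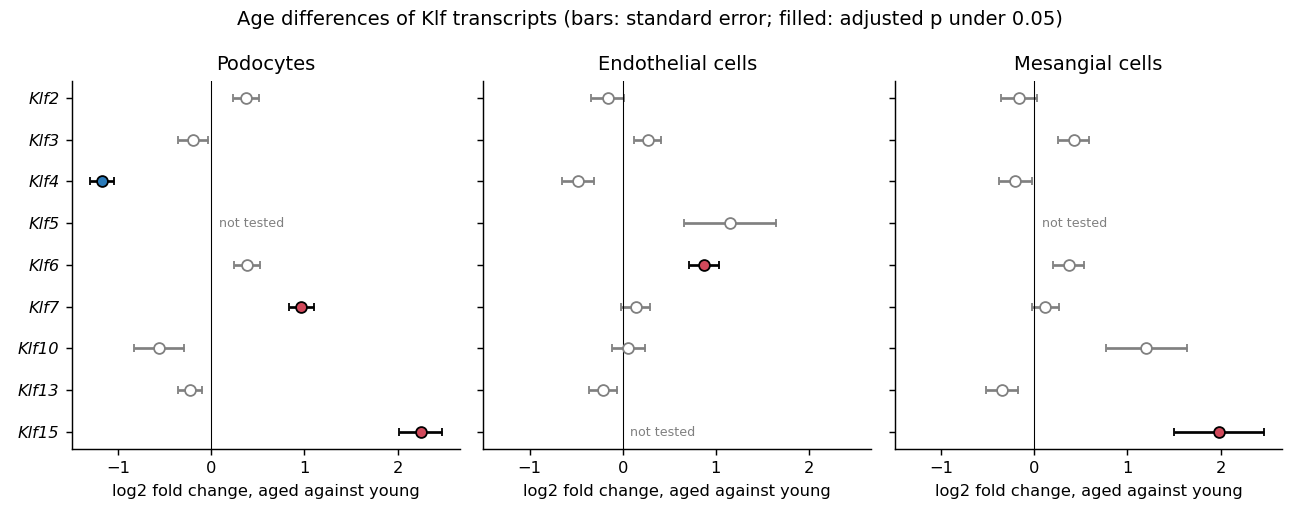
Log2 fold change of aged against young libraries (horizontal axis) for the 9 Klf genes in podocytes, endothelial cells and mesangial cells, with standard errors. Filled points passed an adjusted p under 0.05: Klf4, Klf7 and Klf15 in podocytes, Klf6 in endothelial cells and Klf15 in mesangial cells.

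Podocytes fell into 2 clusters that differed in most Klf transcripts, although Klf and SP genes had been kept out of the clustering. Cluster 6 made up 44.2% and 29.6% of young and 28.2% and 25.9% of aged podocytes. In every library, Klf2 was 8.17 to 33.2 times as high in cluster 2 as in cluster 6, Klf4 5.68 to 22.0 times, Klf6 5.34 to 9.56 times and Klf7 2.10 to 6.18 times. For Klf15 the ratio was 0.766 to 1.33, below 1 in some libraries and above it in others. These ratios are descriptions, with no test.

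Other measures moved with the same split. The summed level of 15 dissociation and immediate early genes (Fos, Jun, Atf3 and the like) was 50880 to 59030 CPM in cluster 2 and 6663 to 12430 in cluster 6. Median UMIs per cell were 4865 to 8533 in cluster 2 and 3078 to 3899 in cluster 6. The summed podocyte markers were 18430 to 20450 in cluster 2 and 22600 to 25070 in cluster 6. Within each cluster the summed dissociation genes were lower in the aged sums without overlap. They stood at 59030 and 55300 in young against 50880 and 54830 in aged cluster 2 sums. In cluster 6 they stood at 12430 and 10670 in young against 6663 and 8206 in aged sums. The part of tissue digestion in these Klf levels, and in the age differences within each cluster, was not tested.

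Tested within each cluster, a step added after the data were seen, Klf15 and Klf4 moved as in all podocytes. Klf15 was at 5.28 and 5.67 in young and 24.8 and 23.2 in aged cluster 2 sums, and at 4.13 and 5.89 in young and 32.5 and 21.4 in aged cluster 6 sums (log2 fold changes 2.14 and 2.57, adjusted p = 2.2e-06 and 5.2e-06). Klf4 was at 325 and 324 against 136 and 125 in cluster 2, and at 55.8 and 58.9 against 17.3 and 5.71 in cluster 6, and it fell by 1.31 and by 2.20 on the log2 scale. All genes were called at 7.01% in cluster 2 and at 2% in cluster 6.

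Klf7 and Klf2 had other values in each cluster. Klf7 rose in cluster 2, from 179 and 186 to 361 and 333 (adjusted p = 1.7e-05), and in cluster 6 it was at 75.2 and 91.3 in young against 66.0 and 54.3 in aged libraries (log2 fold change -0.41, adjusted p = 0.56). Klf2 in cluster 6 fell from 167 and 121 to 80.1 and 44.3, by 1.22 in log2 units (adjusted p = 3.6e-07). In cluster 2 it was at 1311 and 1145 in young against 1394 and 1461 in aged libraries (0.22, adjusted p = 0.39). Klf13 also fell in cluster 6, by 0.78, with an adjusted p of 0.011. Whether these age differences differ between the clusters was not tested.

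**Figure D3:**
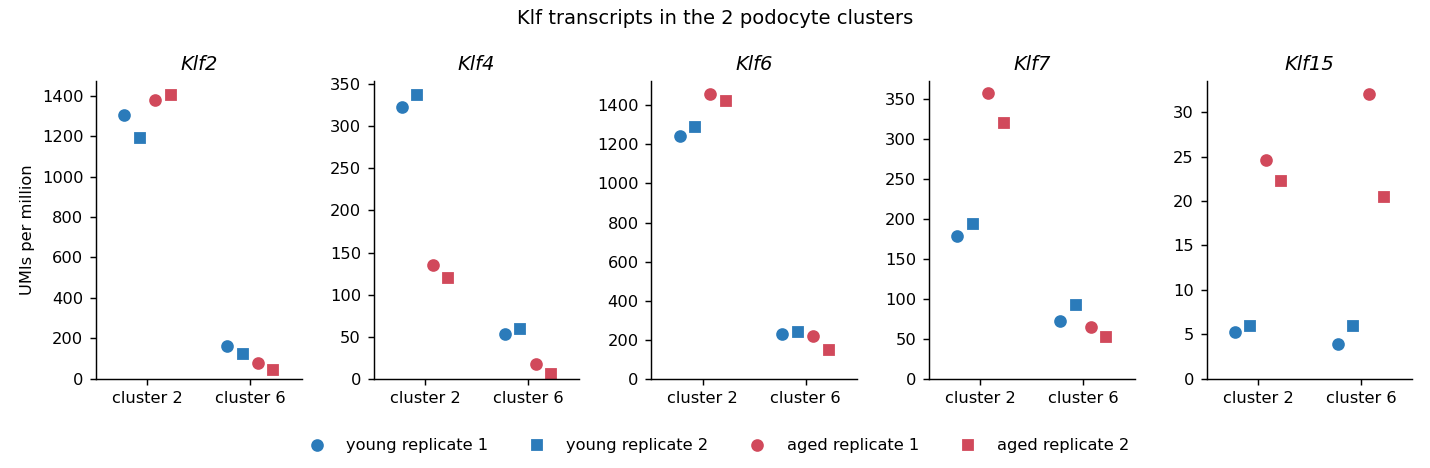
CPM (vertical axis, from 0, a scale of its own for each gene) of Klf2, Klf4, Klf6, Klf7 and Klf15 in podocyte clusters 2 and 6, with 1 point per library. Klf2, Klf4, Klf6 and Klf7 are higher in cluster 2 in every library, and aged libraries lie above young ones for Klf15 in both clusters.

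Genes tied to these factors were counted from lists. Of 6 genes of the glucocorticoid list tested in podocytes, the receptor gene Nr3c1 among them, 3 rose and none fell. The median log2 fold change of the 6 was 0.68. Over all genes, 3.83% were called higher and 1.94% lower in podocytes. Zbtb16 stood at 0.131 and 0.299 CPM in young against 5.02 and 3.99 in aged libraries. Fkbp5, the receptor's co-chaperone, stood at 0.788 and 1.50 against 7.17 and 3.36, and Tsc22d3 at 102 and 70.0 against 202 and 142. All 3 passed, although Zbtb16 and Fkbp5 rest on few young UMIs.

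Of 4 tested podocyte genes placed under KLF15 or KLF4, 1 rose: Vim, which encodes vimentin, went from 2604 and 2464 to 3571 and 3584 (0.50 ± 0.15, adjusted p = 0.049). Nphs1, Podxl and Synpo did not pass, with log2 fold changes of 0.10, 0.01 and 0.07. Dissociation and immediate early genes split, with 4 of 15 higher and 1 lower, where 3.83% of all genes were called higher and 1.94% lower. Atf3, Hspa1a and Hspa1b rose, by 0.76, 1.05 and 1.04 on the log2 scale, and Dusp1 fell by 0.81. The summed level of that list was 43660 and 45940 in young against 43520 and 47930 in aged podocyte sums. Those sums join both clusters, and within each cluster the aged sums lay below the young ones.

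Markers of other classes were low in podocyte sums. The 8 endothelial markers added up to 38.6 and 117 CPM in the young and 66.1 to 85.5 in the aged sums, at most 0.969% of their level in endothelial cells. The 6 mesangial markers reached at most 0.367% of their own level and the 7 macrophage markers at most 0.0899%, with Adgre1 at 0 in at least 1 library of each age. The 7 smooth muscle and renin markers stood at 18.0 and 21.2 in young against 68.8 and 47.3 in aged podocyte sums, at most 0.225% of their own level, with Rergl and Cnn1 at 0 in all 4 libraries, and their part in the Klf differences was not tested. Median UMIs per podocyte were 4202 and 5819 in young against 5827 and 7682 in aged libraries, and the part of depth in the differences was not tested.

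In endothelial cells, Klf6 rose and no other member passed. Of 8 members tested, 1 was called, where 6.11% of all 13145 genes were called, and the members' median log2 fold change was 0.10 against -0.01 over all genes. In 6 of the 8 the groups did not overlap, which held for 48.7% of all genes. Klf6, the injury-induced factor, was at 314 and 305 CPM in young against 512 and 622 in aged libraries. The aged values were the higher ones without overlap, with a log2 fold change of 0.87 ± 0.16 (SE, adjusted p = 0.0016), or 1.83-fold.

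Klf6 was higher in aged libraries in each of the 6 endothelial clusters with at least 40 cells per library, and each was called. Endothelial clusters 22 and 23 had fewer cells and were not tested. In cluster 22 Klf6 was at 278 and 348 in young against 644 and 885 in aged libraries. In cluster 23, led by Prc1 and Cenpf, the groups overlapped, at 354 and 594 in young against 381 and 559 in aged libraries. In cluster 0, led by the adhesion molecule gene Sele and by Il6, it was at 227 and 191 in young against 502 and 583 in aged libraries, the largest of the 6 differences at 1.37. In cluster 1, led by capillary genes such as Ehd3, it was at 285 and 292 against 387 and 530 (0.67), and the smallest difference was 0.60, in cluster 7. All genes were called at 3.71% in cluster 0, 2.82% in cluster 1, 1.87% in cluster 4, 4.25% in cluster 5, 3.82% in cluster 7 and 2.33% in cluster 10. With either young library left out, no gene of all those tested was called by edgeR in endothelial cells, and the Klf6 difference was then 0.86 to 0.90 with adjusted p of 0.32 and 0.33.

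Klf4 stood lower in the aged endothelial libraries without passing, at 1195 and 1267 in young against 795 and 966 in aged libraries (log2 fold change -0.48 ± 0.17 SE, adjusted p = 0.11). Its difference was below 0 in 6 of 6 clusters and called in 1. That was cluster 7, led by Tspan8 and Thbs2, where Klf4 went from 1900 and 2039 to 1025 and 1345 (adjusted p = 0.0047). DESeq2 called Klf4 over the whole class (adjusted p = 0.036), and so did edgeR with replicate number as a block (adjusted p = 0.0073).

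Klf2, the other flow-induced factor, overlapped between groups, at 1660 and 1555 in young against 1293 and 1584 in aged libraries. Clusters differed in its level. In cluster 0 it was at 521 and 607 in young against 742 and 746 in aged libraries. In cluster 1 it was at 2072 and 2110 against 2634 and 2778, and neither difference passed, although in both clusters the aged libraries lay above the young ones. Cluster 0 made up 12.8% and 14.6% of young and 40.8% and 29.5% of aged endothelial cells, and the part of this shift in the class-wide values was not tested.

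The remaining endothelial members differed little. Klf7 was at 480 and 536 against 565 and 554, Klf13 at 358 and 325 against 309 and 282, and Klf3 at 225 and 219 against 257 and 278. In each of these 3 the groups did not overlap and the test was not passed. Klf13 was below 0 in 6 of 6 clusters and Klf3 above 0 in 6 of 6, with no cluster called. Klf10 overlapped, at 24.7 and 37.7 against 32.6 and 31.5. Klf5 had 6 and 4 UMIs in young against 26 and 39 in aged sums (adjusted p = 0.20). Klf15 had 1 and 0 UMIs in young against 17 and 5 in aged sums and was not tested.

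**Figure D4:**
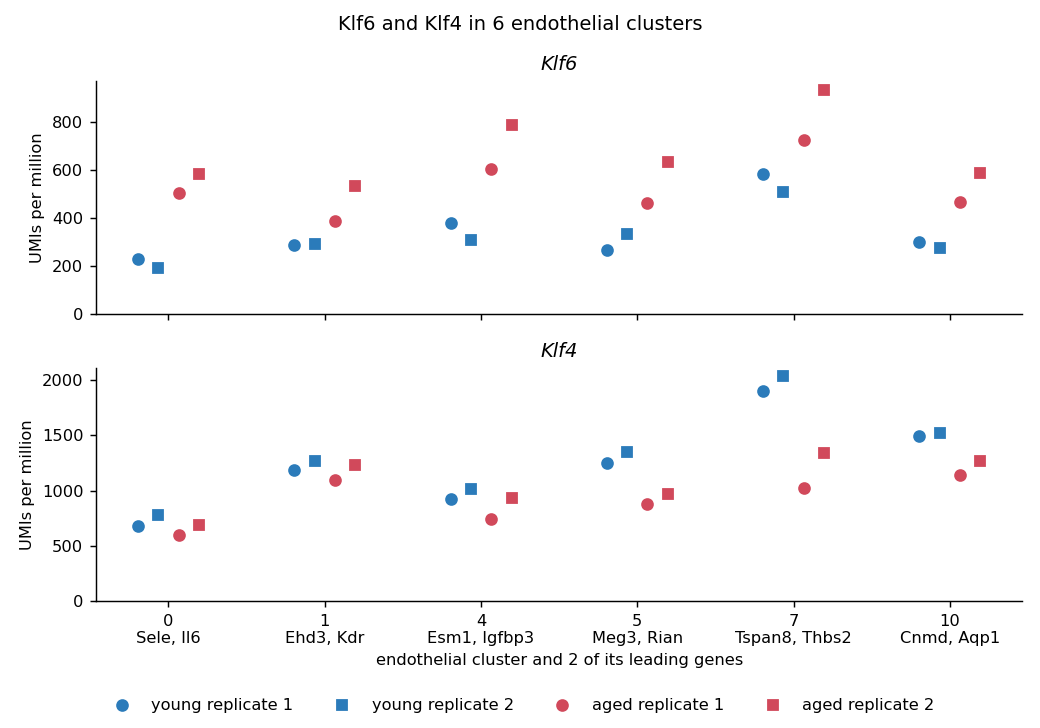
CPM (vertical axes, from 0) of Klf6 and Klf4 in 6 endothelial clusters, with 1 point per library. In each of these 6 clusters the aged libraries lie above the young ones for Klf6. For Klf4 the widest gap is in cluster 7, at 1025 and 1345 in the aged against 1900 and 2039 in the young libraries.

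Genes around Klf2 and Klf4 were counted in endothelial cells. Of 8 genes of the flow cascade that induces both factors (Piezo1, Map3k3, Map2k5, Mapk7, Mef2a, Mef2c, Mef2d and Hdac5), none was called by edgeR, none had an unadjusted p under 0.05 either, and their median log2 fold change was 0.01; 4.05% of all genes were called higher and 2.05% lower. Of 5 tested genes known to be induced by KLF2 or KLF4, 3 rose and none fell, with a median of 0.63. Of 6 genes known to be repressed by either, 3 rose and none fell, with a median of 1.20. Genes of both lists therefore stood higher in the aged libraries.

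Among the induced genes, Thbd, the anticoagulant thrombomodulin, went from 270 and 271 to 408 and 431 CPM. S1pr1, a receptor that tightens endothelial junctions, went from 347 and 353 to 568 and 563, and the water channel gene Aqp1 from 41.6 and 41.0 to 68.7 and 61.1. Among the repressed genes, Edn1, which encodes the vasoconstrictor endothelin, went from 145 and 151 to 344 and 331. The leukocyte adhesion genes Vcam1 and Sele went from 11.5 and 17.5 to 51.1 and 79.9 and from 174 and 204 to 328 and 539. In all 6 genes named here the groups did not overlap. These are values of the whole class. Sele leads cluster 0, which made up 12.8% and 14.6% of young and 40.8% and 29.5% of aged endothelial cells. Edn1 and Aqp1 were among the leading genes of clusters 7 and 10. The part of cluster make-up in these values was not tested.

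Among the other lists in endothelial cells, the glucocorticoid list had 2 of 6 genes higher. Zbtb16 went from 5.97 and 5.35 to 81.0 and 62.7 and Fkbp5 from 2.83 and 2.79 to 38.8 and 12.3. Over all genes, 4.05% were called higher and 2.05% lower. TGF-beta genes had 1 of 8 higher, Skil, and ubiquitin ligases of Kruppel-like factor proteins had 0 of 4. Of the podocyte genes, 2 of 5 were higher (Synpo and Acta2). Dissociation and immediate early genes had 2 of 15 higher, Dusp1 by 1.17 and Ier3 by 0.92 on the log2 scale, and their summed level was 26120 and 26240 in young against 28140 and 30630 in aged sums. Its part in the Klf6 difference was not tested.

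The 9 podocyte markers added up to 167 to 229 CPM in young and 164 to 204 in aged endothelial sums, at most 1.11% of their level in podocytes. The 8 monocyte and dendritic markers reached 4.41% to 5.94% of their own level in the young and 5.34% to 7.81% in the aged sums, with Cd209a and Flt3 at 0 in at least 1 library of each age. The 7 macrophage markers were higher in the aged sums without overlap, at 2.37 and 6.05 CPM in young against 16.9 and 19.4 in aged sums, at most 0.118% of their own level. The part of these markers in the Klf6 difference was not tested. Median UMIs per endothelial cell were 2316 and 2644 in young against 2339 and 3227 in aged libraries.

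In mesangial cells, the contractile cells that hold the capillary loops, Klf15 was called higher from few UMIs and no other member passed. Of 8 members tested, 1 was called, where 6.79% of all 11103 genes were called, and the members' median log2 fold change was 0.25 against -0.02 over all genes. In 5 of the 8 the groups did not overlap, which held for 53.6% of all genes. Klf15 was at 1.73 and 2.22 CPM in young against 6.61 and 8.62 in aged libraries, from 4 and 3 against 32 and 52 UMIs. The gene passed the low-count filter only through the aged sums, where it was high. Its call therefore adds no support beyond these counts. The log2 fold change was 1.98 ± 0.49 (SE, adjusted p = 0.034). DESeq2 did not call it (adjusted p = 0.20), nor did edgeR without young replicate 1, young replicate 2 or aged replicate 2 (adjusted p = 0.32, 0.19 and 0.060).

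The other mesangial members had small or uncertain differences. Klf10, the TGF-beta response gene, had 8 and 5 UMIs in young against 48 and 40 in aged sums, and its log2 fold change was 1.20 ± 0.44 (SE, adjusted p = 0.13). Klf3 was at 112 and 124 against 176 and 139 (adjusted p = 0.15). Klf6 was at 421 and 553 against 599 and 657 (adjusted p = 0.23), and Klf13 at 200 and 184 against 175 and 128 (adjusted p = 0.27). Klf2 and Klf4 overlapped between the groups, at 440 and 547 against 361 and 520 and at 199 and 207 against 146 and 206, and so did Klf7. Without aged replicate 2, Klf3, Klf4 and Klf10 passed, at 0.61, -0.46 and 1.49, and without aged replicate 1 Klf13 passed, at -0.58.

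The 2 age groups of mesangial cells lay in different clusters. Cluster 8, led by Cxcl13 and Ccl2, held 8.82% and 9.38% of young and 95.2% and 96.7% of aged mesangial cells, and cluster 13, led by Gucy1a3 and Sfrp2, held the rest. Klf15 had 0 UMIs in both young and 31 and 52 in the aged sums of cluster 8, and 4 and 3 in young against 1 and 0 in aged sums of cluster 13. Tested alone, neither cluster had a member called, where 0.271% and 1.52% of all genes were called in clusters 8 and 13. Cluster 8 rested on 27 and 18 young cells, and age and cluster cannot be told apart here. Leaving out single mixed cells took cluster 13 from 383 and 235 to 279 and 174 cells in the young libraries. In the aged libraries it went from 35 and 18 to 34 and 18 cells.

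Mesangial markers and markers of other cells also differed. The 6 mesangial markers added up to 9314 and 9231 CPM in young against 6788 and 6205 in aged sums. The 7 smooth muscle and renin markers added up to 89.7 and 54.2 in young against 242 and 227 in aged sums, at most 0.793% of their own level, with Cnn1 at 0 in all 4 libraries. Endothelial markers overlapped between the ages in their summed level, which reached 14.5% to 16.8% of their own level in the young and 12.9% to 15.2% in the aged sums. That level includes Plvap, which reached 772 CPM in a mesangial sum against at most 65.0 in endothelial cells. Summed dissociation genes were 37800 and 42570 in young against 29730 and 35500 in aged sums. Of the 15, 5 were called lower, led by Egr1, Btg2, Jun and Nr4a1, where 2.49% of all genes were called lower. The part of these shifts in the Klf values was not tested.

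Of the linked lists in mesangial cells, 4 of 6 genes known to be repressed by KLF2 or KLF4 rose, with a median of 1.64; 4.3% of all genes were called higher and 2.49% lower. Ccl2, a monocyte-attracting chemokine, went from 21.1 and 20.0 to 206 and 390, and Vcam1 from 228 and 252 to 750 and 787. Edn1 and Angpt2 rose by 2.08 and 0.80 on the log2 scale. None of the 3 induced genes tested was called by edgeR, and S1pr1 alone had an unadjusted p under 0.05. TGF-beta genes had 4 of 8 higher: Smad3 by 1.30, Tgfb1 by 0.90, Skil by 0.78 and Smad7 by 0.76, with a median of 0.64 over the list. The glucocorticoid list had 2 of 6 genes higher, Zbtb16 by 2.86 and Fkbp5 by 1.86. Acta2, of the podocyte list, rose by 2.51, the ligase gene Smurf1 by 0.72, and Mef2c of the flow cascade fell by 0.69.

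In podocytes, both tested genes of the repressed list rose: F3, which encodes tissue factor, from 131 and 138 to 212 and 200, and Edn1 from 1.18 and 1.80 to 5.74 and 3.36. Of 3 tested induced genes 1 rose, Thbd, from 1.05 and 2.10 to 20.8 and 18.5. All genes were called higher at 3.83% and lower at 1.94%. Flow cascade, TGF-beta and ligase genes had 0 of 7, 0 of 8 and 0 of 4 called by edgeR in podocytes; Piezo1, Hdac5, Tgfbr1 and Skil had an unadjusted p under 0.05. The remaining KLF and SP genes had 0 of 8 called in podocytes, 0 of 10 in endothelial cells and 0 of 8 in mesangial cells by edgeR. Unadjusted p-values were under 0.05 for Klf9, Klf16, Sp1 and Sp6 in podocytes and for Klf11 in each of the other two classes.

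**Figure D5:**
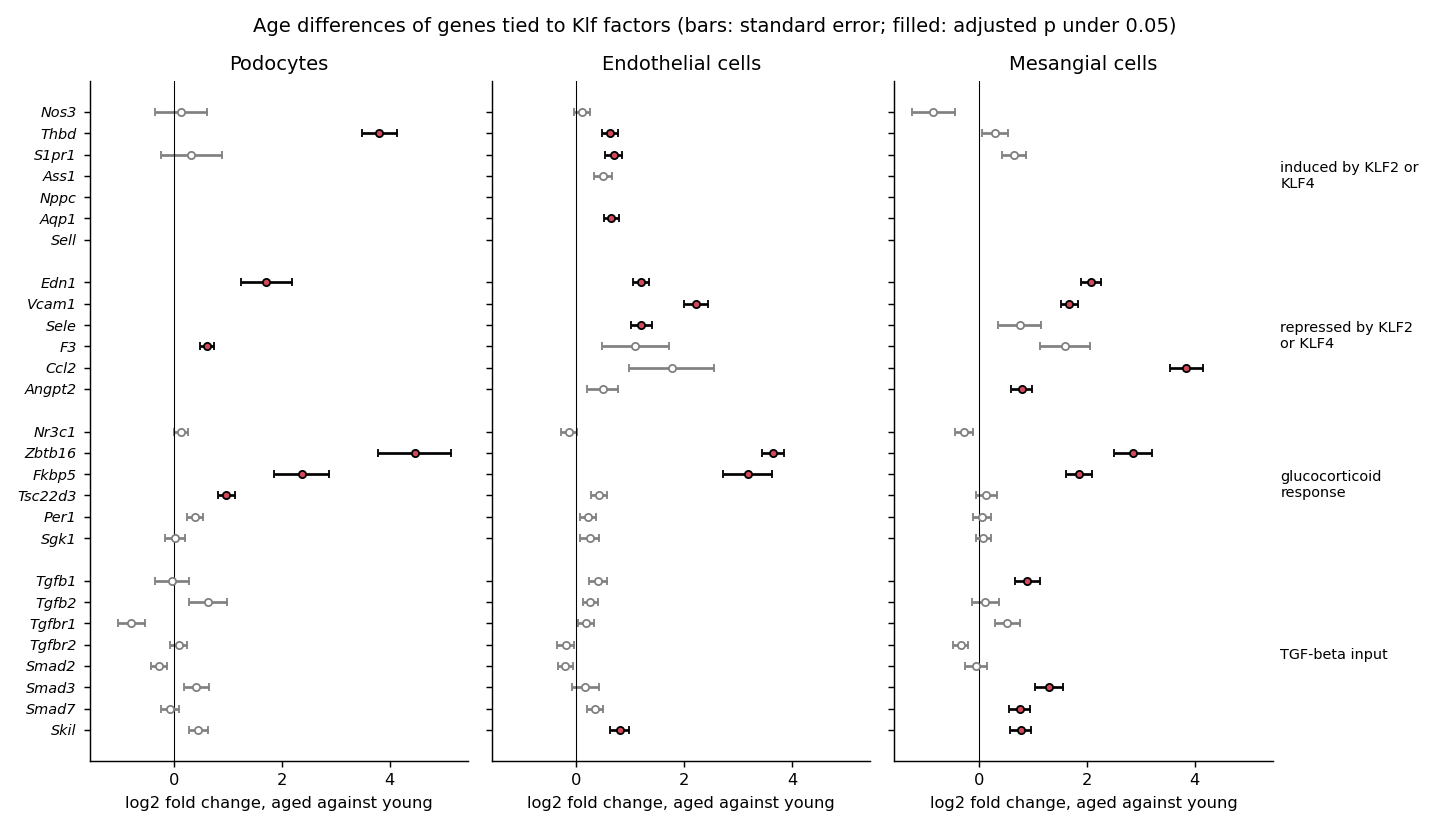
Log2 fold change of aged against young libraries (axis in log2 units) for the genes of the linked lists in podocytes, endothelial cells and mesangial cells. Filled points passed an adjusted p under 0.05; the called genes of the repressed list (2 in podocytes, 3 in endothelial cells, 4 among mesangial ones) lie above 0.

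Whether the age difference of a member differed between classes was tested directly, with the library as a block. Between endothelial cells and podocytes, 4 of 8 members were called, where 5.11% of all genes were. Klf7 (log2 difference -0.80 ± 0.10 SE, adjusted p = 0.00014) and Klf2 (-0.53 ± 0.11, adjusted p = 0.0075) had the more positive age difference in podocytes. Klf4 (0.70 ± 0.13, adjusted p = 0.0030) and Klf6 (0.49 ± 0.11, adjusted p = 0.018) had the more positive one in endothelial cells. For Klf4, log2 fold changes were below 0 in both classes, so that this difference is one of size. These terms compare whole classes. Within podocyte clusters 2 and 6, log2 fold changes were 0.22 and -1.22 for Klf2 and 0.93 and -0.41 for Klf7. In the 6 endothelial clusters tested alone they ran from -0.19 to 0.40 for Klf2 and from -0.17 to 0.22 for Klf7. The part of cluster make-up in the class-wide terms was not tested.

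Between mesangial cells and podocytes, 4 of 9 members were called, where 3.48% of all genes were. Klf4 (1.01 ± 0.19, adjusted p = 0.0046) and Klf7 (-0.79 ± 0.16, adjusted p = 0.0071) again stood apart, with Klf10 (1.90 ± 0.47, adjusted p = 0.031) and Klf3 (0.68 ± 0.18, adjusted p = 0.047). Between mesangial and endothelial cells, 0 of 9 members were called by edgeR's test, 2 had an unadjusted p under 0.05 (Klf6 and Klf10), and 2.13% of all genes were called. Klf15 was not called in any of the 3 pairs. Its log2 differences were 0.51 ± 1.14 (SE) for endothelial cells minus podocytes and -0.18 ± 0.67 for mesangial cells minus podocytes. For mesangial minus endothelial cells the difference was -0.70 ± 1.41. With so few Klf15 UMIs in young endothelial and mesangial sums, these terms cannot show whether its age difference was shared. Without young replicate 2, there were 5 calls over all pairs in place of 8.

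Smaller classes were tested after the data had been seen. In monocytes and dendritic cells, Klf2, which restrains activation of monocytes, was at 834 and 862 CPM in young against 487 and 442 in aged libraries. It fell by 0.87 ± 0.21 on the log2 scale (SE, adjusted p = 0.041) and was the 1 call among 7 members tested, where 1.85% of all genes were called, 1.29% higher and 0.566% lower. It was called in 7 of 13 alternative settings and in none that left out a library, where its log2 fold change ran from -0.78 to -0.92. The class's own monocyte markers stood lower in the aged sums as well, Ccr2 at 704 and 769 in young against 328 and 142 in aged, Ly6c2 at 589 and 442 against 321 and 127, and Plac8 at 2149 and 2044 against 1074 and 1055. The part of this shift in the Klf2 value was not tested. The macrophage markers, of which C1qa, C1qb and C1qc were at 0 in a young library, reached 5.55% to 6.35% of their own level in the young and 6.43% to 7.16% in the aged sums.

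In smooth muscle and renin cells, Klf4 was at 660 and 952 in young against 445 and 427 in aged libraries and did not pass (-0.89 ± 0.22 SE, adjusted p = 0.064). None of 6 members tested was called there by edgeR (Klf3 and Klf4 had an unadjusted p under 0.05), where 1.09% of all genes were called, 0.626% higher and 0.463% lower. Klf4 was called in 5 of 13 alternative settings. Endothelial markers reached 4.04% to 6.09% of their own level in the young and 1.11% to 1.69% in the aged sums, with Cdh5, Flt1, Kdr and Pecam1 at 0 in at least 1 aged library. Podocyte markers reached 1.16% to 7.37% in the young and 1.14% to 1.56% in the aged sums, and the part of either list was not tested. In B cells 0 of 5 members were called by edgeR, where 0% of all genes were and 186 of 1851 genes had an unadjusted p under 0.05. In T and NK cells 0 of 4 were called by edgeR (no member tested in either lymphocyte class had an unadjusted p under 0.05), where 0.838% of all genes were, 0.299% higher and 0.539% lower. Klf2 in these lymphocytes was at 705 and 963 against 972 and 765 in B cells and at 1161 and 1053 against 945 and 1028 in T and NK cells.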

How the data were processed

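Single-cell RNA libraries were made from mouse glomeruli, 2 young and 2 aged, with a Chromium 3' kit (version 3.1). The deposited matrices hold raw UMI counts per gene and barcode. The authors' Cell Ranger version is 3.1.0 per the labels' protocol and 6.0.1 per the file headers and the submitters' processing notes; the notes also name Partek, with no role. The build is GRCm38 per the submitters' processing notes, and whether counting used strand is not given in the sources used here.

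Barcodes with at least 500 genes and at most 20% mitochondrial UMIs were kept. Scrublet scoring in scanpy marked 0.449% of cells on its own, under 0.5%, so the highest scores were removed instead at 0.8% per 1000 barcodes (1876 cells, 6.28%). Cells were clustered with scanpy 1.11.5 and leidenalg 0.10.2 (2000 variable genes without Klf and Sp genes, 30 components, 15 neighbours, resolution 1). Of 34 clusters, 23 were named from marker lists. The naming limits (a marker level of 0.35, and 0.25 for an unrelated class) were set after seeing the data. Single cells of named clusters that carried markers of an unrelated class were left out of the classes too. The alternative with mixed clusters kept holds these cells as well.

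Counts were summed per library and class and tested with edgeR 4.0.16 in R 4.3.3 (TMM scaling, filterByExpr, quasi-likelihood test), aged against young, with p-values adjusted by Benjamini-Hochberg over all genes tested and called under 0.05. Means and levels are counts scaled by TMM to a common total (CPM). Class differences and age by class terms had library as a block. With 2 against 2 libraries an exact permutation test cannot go below 0.333. The age tests were also run on simulated counts with the same spread set for every gene. That check cannot show how they behave with shifts such as the mixed cells of young replicate 2. Parietal epithelial cells were not named and not tested, so class tests cover 12 sums and 3 pairs in place of the planned 16 and 6. Alternatives were RLE scaling, DESeq2 1.42.0, no low-count filter, a replicate block, leaving out each library, other cell filters, resolution 0.5, mixed clusters kept and single clusters; single podocyte clusters and 4 further classes were added after seeing the data. The labels do not say that libraries came from separate mice, so p-values measure the spread between libraries. Members and gene lists were chosen with earlier results of these data known. Beside the 9 members, up to 4 called genes per list and class were named, those with the smallest p, and the 3 genes most alike in pattern among those with a mean of at least 20 CPM. Positions are from GENCODE vM21 and promoter sequences from RefSeq (7 of 9 members matched). Of the linked lists, 2 genes are not reported here, and list counts and medians leave them out.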

Additional observations from a re-analysis of the deposited data

Results flagged for a closer look

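The age difference of 8 member and class pairs differed between classes by the test of the age by class term, given as the log2 age difference in the first class minus that in podocytes. For endothelial cells against podocytes the values were -0.53 for Klf2, 0.70 for Klf4, 0.49 for Klf6 and -0.80 for Klf7. For mesangial cells against podocytes they were 0.68 for Klf3, 1.01 for Klf4, -0.79 for Klf7 and 1.90 for Klf10. Klf4 and Klf7 were called in both, and both comparisons share the podocyte sums. All are values of whole classes, and the part of cluster make-up in them was not tested. Klf10 rests on 5 to 48 UMIs per mesangial sum.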

How the results depend on the processing

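Over single members, 600 alternative values kept their direction and side of the threshold, 18 passed it, 16 lost it and 33 changed sign. Klf15 in podocytes was called in all 15 alternatives (2.11 to 2.57) and Klf4 in 14 of 15. Of the 33, Klf7 in podocytes was the 1 called in all cells of its class. In podocyte cluster 6 alone, Klf2 turned to -1.22, Klf7 to -0.41 and Klf6 to -0.33. In single endothelial clusters, Klf2 turned to 0.40 (cluster 0), 0.37 (cluster 1) and 0.18 (cluster 10), Klf7 to -0.17 (cluster 1) and -0.088 (cluster 10) and Klf10 to -0.34 (cluster 7). In mesangial cluster 13 alone Klf2 turned to 0.36 and Klf7 to -0.21, and in cluster 8 alone Klf2 to 1.33 and Klf4 to 1.11. With mixed clusters kept, Klf7 and Klf10 turned to -0.33 and -0.085 in mesangial cells, Klf3, Klf6 and Klf10 to 0.029, -0.061 and 0.023 in monocytes and dendritic cells and Klf2 to -0.20 in B cells. At resolution 0.5, Klf6 in smooth muscle and renin cells turned to 0.23. With each library left out, values on both sides of 0 ran from -0.23 to 0.38 for Klf10 in endothelial cells, from -0.43 to 0.088 for Klf2 and -0.46 to 0.031 for Klf4 in mesangial cells, from -0.030 to 0.63 for Klf2, -0.41 to 0.35 for Klf6 and -0.24 to 0.023 for Klf13 in smooth muscle and renin cells, from -0.075 to 0.25 for Klf6 and -0.79 to 0.13 for Klf7 in monocytes and dendritic cells, from -0.10 to 0.32 for Klf2 in B cells and from -0.86 to 0.071 for Klf13 in T and NK cells. Of the counts of members called, 85 were within 1.5 times and 28 moved. In podocytes (3 called) the count was 1 with mixed clusters kept and 3 to 5 with each library left out. In endothelial cells (1 called) it was 2 with DESeq2, 0 with no low-count filter, 2 in cluster 7 alone and 0 to 1 with each library left out. In mesangial cells (1 called) it was 0 with DESeq2, 2 with mixed clusters kept, 0 in cluster 13 alone, 0 in cluster 8 alone and 0 to 3 with each library left out. In smooth muscle and renin cells (0 called) it was 1 with no low-count filter, 1 at 10% mitochondrial UMIs, 1 with at least 1000 UMIs per cell and 0 to 1 with each library left out. In monocytes and dendritic cells (1 called) it was 0 with no low-count filter, 0 with mixed clusters kept and 0 with any library left out. Age by class calls (8) were 5 to 8, and class differences (22) 21 to 22, with each library left out. Where a library is left out, the lone one is assumed to vary like the other group. The cause of these shifts was not tested.

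Over all genes, podocyte calls (627) were 268 with DESeq2, 367 at resolution 0.5, 38 with mixed clusters kept and 298 to 1252 with each library left out. Endothelial calls (803) were 500 with DESeq2, 0 with no low-count filter and 0 to 734 with each library left out. Mesangial calls (754) were 447 with DESeq2, 1341 with no low-count filter and 46 to 1749 with each library left out. With replicate number as a block, members called were 3 in podocytes, 2 in endothelial cells (Klf4 passed as well, at -0.49 with an adjusted p of 0.0073), 1 in mesangial cells, 1 in smooth muscle and renin cells (Klf4, at -0.86 with an adjusted p of 0.0074), 1 in monocytes and dendritic cells and 0 in B and in T and NK cells; all genes called rose to 1545 in endothelial and 1498 in mesangial cells. Same-numbered libraries correlated at 0.059, 0.19 and 0.097 in podocytes, endothelial and mesangial cells, so the numbers were not shown to pair them. Parietal epithelial alternatives were not run. Depth limits Klf5, Klf10 and Klf15 most, each with at most 52 UMIs in any mesangial sum.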
